A study of Homo sapiens with 4 samples.

Results

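The miR-34 and miR-449 family is described here across lines of HEK293T, a human embryonic kidney line that carries the SV40 large T antigen. Its members were chosen by name as 9 mature miRNAs of 6 hairpins at 3 loci: both arms of miR-34a, both arms of miR-34b and of miR-34c, and miR-449a, miR-449b-5p and miR-449c-5p. They are 9 of the 2656 mature miRNAs of the deposited count table. Small RNA was sequenced from 2 CAG and 2 PGK libraries. The CAG lines were monoclonal HEK293T lines with a CAG landing pad (an integration site built into the genome for transgenes, here with the CAG promoter), and the PGK lines were monoclonal lines with a PGK landing pad. The series asked which miRNAs differ between these lines. The labels give neither the number of clones nor whether replicates were separate cultures, so p-values measure only the spread between these libraries. An effect of the promoter cannot be told apart from one of the clone, nor fewer cells with a miRNA from less of it per cell.

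miRNAs bind target mRNAs mainly through the seed, the bases near the 5′ end of the mature strand, so miRNAs of the same seed have overlapping targets. p53 directly activates transcription of MIR34A and of the MIR34B and MIR34C pair, and their products repress cell cycle and survival genes such as CDK6, MET and BCL2. MIR449A, MIR449B and MIR449C lie within CDC20B, are known as targets of E2F1, and are abundant in multiciliated cells of the airway. The large T antigen of HEK293T binds p53. The small RNA counts used here hold no measure of p53 or its activity.

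The mature sequences are shown because the family is defined by them. RefSeq (GRCh38.p14) held 8 of the 9 members, all but miR-34c-5p. Capitals mark the seed, bases 2 to 8 counted from the 5′ end.
hsa-miR-34a-5p: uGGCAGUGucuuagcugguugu
hsa-miR-449a: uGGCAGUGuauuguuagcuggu
hsa-miR-449b-5p: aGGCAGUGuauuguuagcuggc
hsa-miR-34b-5p: uAGGCAGUgucauuagcugauug
hsa-miR-449c-5p: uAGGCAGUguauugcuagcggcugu
hsa-miR-34a-3p: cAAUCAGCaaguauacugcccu
hsa-miR-34b-3p: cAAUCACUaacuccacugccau
hsa-miR-34c-3p: aAUCACUAaccacacggccagg
miR-34a-5p, miR-449a and miR-449b-5p share the seed GGCAGUG. In miR-34b-5p and miR-449c-5p the same 7 letters stand 1 base further in, at bases 3 to 9, which makes their seed AGGCAGU. These letters occur on the given strand anywhere in 16 of 2370 RefSeq mature miRNA names (0.675%). The 3p strands carry other seeds. miR-449a and miR-449b-5p differ by an edit distance of 2 and share an unbroken run of 20 letters from the first base of the seed, so how their reads were divided is uncertain. Counted from the first letter of GGCAGUG, wherever it stands, miR-34a-5p shares an unbroken run of only 8 letters with each miR-449 strand.

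GENCODE release 29 (GRCh38) places MIR34A at chromosome 1, 9151668 to 9151777, on the minus strand in an exon of its long non-coding host gene MIR34AHG. MIR34B lies at chromosome 11, 111512938 to 111513021, and MIR34C at 111513439 to 111513515, both on the plus strand and overlapping no other gene. MIR34B and MIR34C are 418 bases apart, and the protein-coding gene BTG4 starts 584 bases from MIR34B on the opposite strand. MIR449A (chromosome 5, 55170532 to 55170622), MIR449B (55170646 to 55170742) and MIR449C (55172262 to 55172353) lie in an intron of CDC20B, like it on the minus strand. The deposited tables hold no coordinates, so these places were looked up by hairpin name.

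Library totals were 13780279 and 2845945 reads in CAG replicates 1 and 2, and 7927615 and 7331437 in PGK replicates 1 and 2. Levels are CPM, the share of each library's reads on the usual per-million scale, after TMM scaling between libraries. A single read is worth 0.0776 and 0.324 CPM in CAG replicates 1 and 2, against 0.125 and 0.139 CPM in PGK replicates 1 and 2. Of 773 miRNAs tested with edgeR's quasi-likelihood method, 110 (14.2%) were called at an adjusted p under 0.05, with 47 (6.08%) lower and 63 (8.15%) higher in CAG cells. Of 9 markers of other cell types (blood, liver, muscle, neurons and endocrine cells), 8 had at least 1 read, with summed levels of 97.8 and 91.4 CPM in CAG libraries, against at least 128.7 CPM in PGK libraries. Nearly all of it was miR-375-3p, an endocrine miRNA, the other markers had at most 20 reads in a library, and the myeloid miR-223-3p had none. The markers did not include miR-1-3p, a muscle miRNA. It had 212 and 48 reads in CAG replicates 1 and 2, against 829 and 674 reads in PGK replicates 1 and 2. Both miR-1-3p and the muscle marker miR-133a-3p were called lower in CAG cells. Their log2 fold changes were −2.61 and −3.09 (edgeR adjusted p = 9.33e-06 and 0.0171). Another muscle miRNA, miR-499a-5p, was at 0.20 and not called (edgeR adjusted p = 0.698). The part of all these miRNAs in the results was not tested.

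In CAG cells the main p53-linked member was much lower. Of the 6 tested members 1 passed the test, a share near the 14.2% called among all tested miRNAs. miR-34a-5p, the guide strand of MIR34A, stood at 64.1 and 52.5 CPM in CAG replicates 1 and 2, against 353 and 348.5 CPM in PGK replicates 1 and 2. The groups did not overlap, and the PGK replicates were almost level. The means were 58.3 ± 8.23 CPM in CAG cells and 350.8 ± 3.21 CPM in PGK cells (SD, n = 2 each). The log2 fold change was −2.57 (SE 0.20; edgeR adjusted p = 6.55e-06), a level 5.95-fold lower in CAG cells. By mean level it ranked 265th among all miRNAs in CAG cells and 123rd in PGK cells. Its log2 fold change was the 9th lowest of all 773 tested miRNAs. Among the 363 tested miRNAs averaging 20 CPM or more, 3 had a lower log2 fold change. The other 5 tested members, with fewer reads, had log2 fold changes between −0.97 and 0.89 and were not called.

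**Figure D1:**
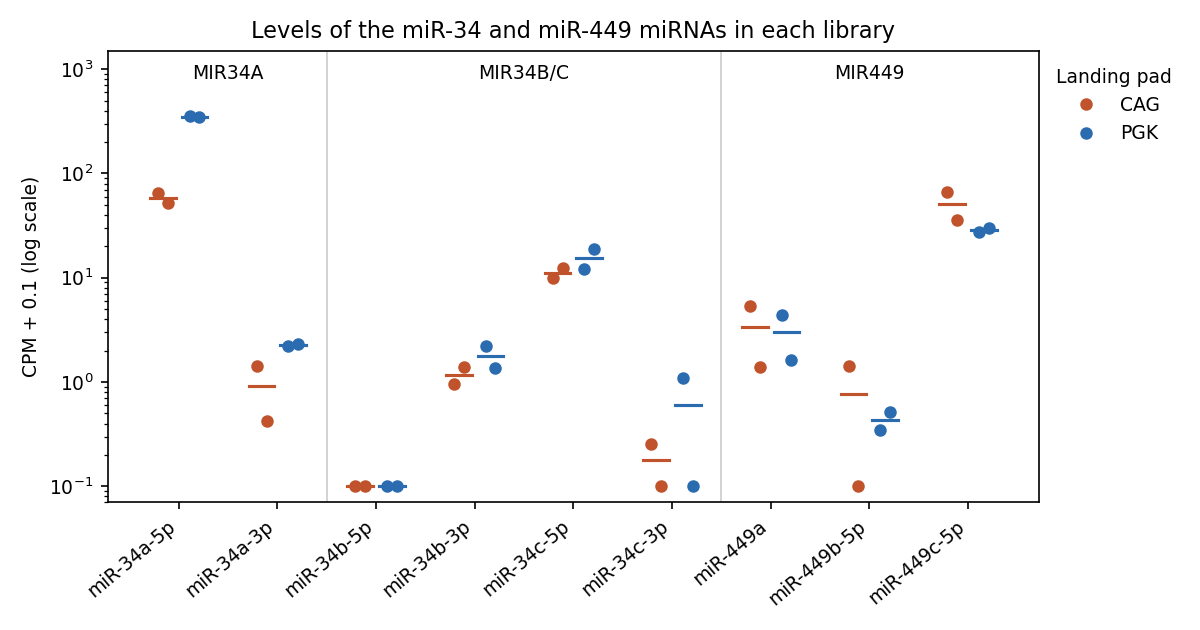
CPM of each member in each library, with 0.1 added and drawn on a log scale, CAG points left of PGK points and short lines at the group means. miR-34a-5p is the member whose groups stand far apart, at 52.5 to 64.1 CPM in CAG and 348.5 to 353 CPM in PGK cells, while miR-34b-5p has no read in any library.

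The passenger strand miR-34a-3p comes from the same hairpin. It had 17 and 1 reads in CAG replicates 1 and 2, against 17 and 16 reads in PGK replicates 1 and 2, or 1.32 and 0.324 CPM against 2.13 and 2.23 CPM. Both CAG values lay below both PGK values. Its log2 fold change of −0.97 (SE 0.54) did not pass the test (edgeR adjusted p = 0.273). It rests on CAG replicate 1: without that library it was −2.67, near the −2.73 of miR-34a-5p in the same fit, and without CAG replicate 2 it was −0.71. The pooled count ratio was 0.518 of the PGK level, with an exact 95% binomial interval of 0.275 to 0.947. Intervals on reads cover counting error only, since PCR copies of 1 molecule could not be recognised without molecular identifiers.

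The arms of MIR34A kept their order in every library, with the 3p strand a small minority. It made up 2.02% of the hairpin's reads in CAG replicate 1 (exact 95% interval 1.18 to 3.21%) and 0.613% in CAG replicate 2 (0.0155 to 3.37%), against 0.599% (0.349 to 0.957%) and 0.636% (0.364 to 1.03%) in PGK replicates 1 and 2. CAG replicate 1 was above both PGK libraries, while CAG replicate 2, with a single 3p read, was between them. The log2 ratio of 3p to 5p reads, with 0.5 added to each, was −6.16 ± 0.85 in CAG and −7.29 ± 0.06 in PGK cells (SD, n = 2 each). The difference of 1.13 had an exact permutation p = 0.333, two-sided, which is the smallest that 2 libraries against 2 can give. The difference was 0.53 without CAG replicate 1 and 1.73 without CAG replicate 2. At 1 read in CAG replicate 2 a difference in arm use was not detectable.

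The other locus known as a p53 target was at low levels. miR-34c-5p, the most abundant strand of MIR34B and MIR34C, stood at 9.86 and 12.3 CPM in CAG replicates 1 and 2, against 12.01 and 18.7 CPM in PGK replicates 1 and 2. The groups overlapped. Its log2 fold change was −0.52 (SE 0.31; edgeR adjusted p = 0.299) and ran from −0.81 without PGK replicate 1 to −0.16 without PGK replicate 2, so it depends on which PGK library is kept. miR-34c-3p had 2 and 0 reads in CAG replicates 1 and 2, against 8 and 0 reads in PGK replicates 1 and 2, too few to be tested. All its PGK reads came from 1 library.

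MIR34B was detected from its 3p strand alone. miR-34b-3p had 11 and 4 reads in CAG replicates 1 and 2, against 17 and 9 reads in PGK replicates 1 and 2. In CPM that is 0.854 and 1.30 in CAG libraries and 2.13 and 1.25 in PGK libraries, and the groups overlapped. The log2 fold change was −0.84 (SE 0.58; edgeR adjusted p = 0.373). It was −0.39 without CAG replicate 1 and −0.40 without PGK replicate 1. miR-34b-5p, the strand with the shifted seed, had 0 reads in all 4 libraries, which allows up to 0.233 and 0.972 CPM in CAG replicates 1 and 2 and up to 0.375 and 0.418 CPM in PGK replicates 1 and 2 (3 reads each). Over all libraries 41 reads of the hairpin fell on the 3p strand and 0 on the 5p strand. For MIR34C the balance was the other way, with 10 of 405 reads on the 3p strand (2.47%, exact 95% interval 1.19 to 4.49%).

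At the locus in CDC20B the fold change had the opposite sign and did not pass the test. miR-449c-5p, which gave most of its reads, stood at 66.5 and 36.0 CPM in CAG replicates 1 and 2, against 27.4 and 29.8 CPM in PGK replicates 1 and 2. Both CAG libraries lay above both PGK libraries, but they differed from each other by more than CAG replicate 2 differed from PGK cells. Averaged over replicates, CAG cells had 51.3 ± 21.6 CPM and PGK cells 28.6 ± 1.72 CPM (SD, n = 2 each). The log2 fold change was 0.89 (SE 0.28; edgeR adjusted p = 0.0677). Without CAG replicate 2 it was 1.22 (edgeR adjusted p = 0.000137), without CAG replicate 1 it was 0.34 (edgeR adjusted p = 0.636), and with scaling by library size alone the adjusted p was 0.0387. In fits with a single CAG library the spread comes from the PGK pair, which was nearly level for this miRNA, and the lone library is assumed to vary as little, so those p-values do not carry the spread between the CAG libraries.

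The 2 smaller members of this cluster were also highest in CAG replicate 1. miR-449a had 68 and 4 reads in CAG replicates 1 and 2, against 34 and 11 reads in PGK replicates 1 and 2. That is 5.28 and 1.30 CPM in CAG and 4.25 and 1.53 CPM in PGK libraries, so the CAG range spanned the PGK range. Its log2 fold change was 0.51 (SE 0.56; edgeR adjusted p = 0.603) and turned to −1.17 without CAG replicate 1 and −0.11 without PGK replicate 2. miR-449b-5p had 17 and 0 reads in CAG replicates 1 and 2, against 2 and 3 reads in PGK replicates 1 and 2, and was not tested. miR-449c-5p made up 91.0% and 96.5% of the reads of the 3 strands in CAG replicates 1 and 2, against 85.9% and 93.9% in PGK replicates 1 and 2.

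**Figure D2:**
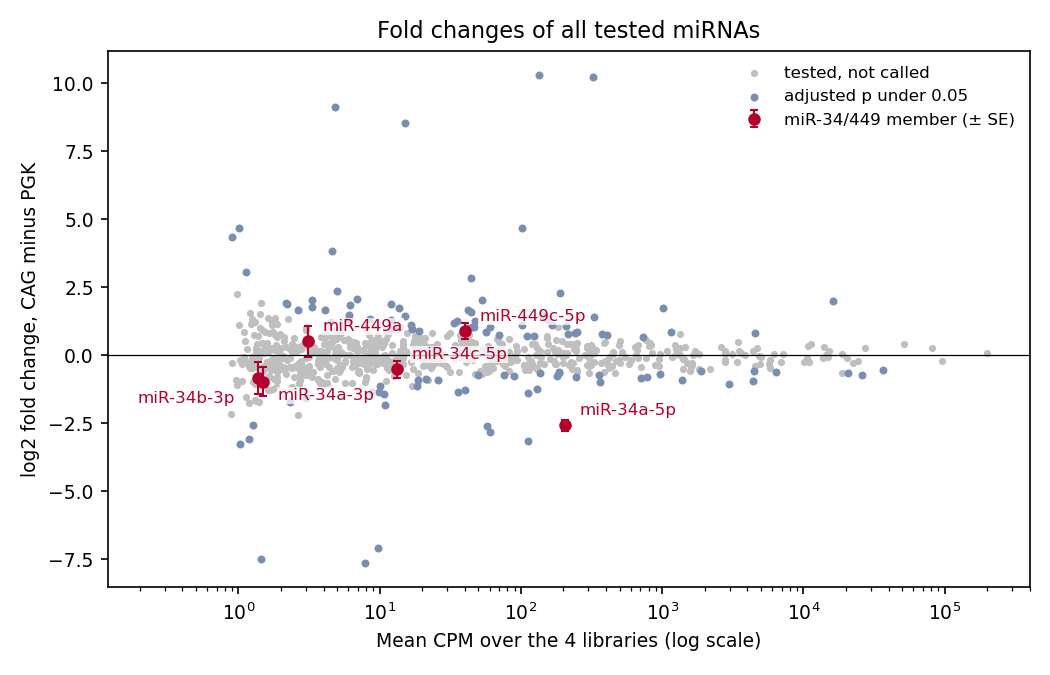
Log2 fold change of CAG minus PGK against the mean CPM over the 4 libraries, on a log scale, for the 773 tested miRNAs, with called miRNAs in blue and the 6 tested members in red with their standard errors. miR-34a-5p, at −2.57, lies among the lowest called miRNAs of its level, and the other 5 members lie between −0.97 and 0.89.

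The order of levels by mean was shared by the 4 most abundant members, with different gaps. In CAG cells miR-34a-5p was followed by miR-449c-5p, miR-34c-5p and miR-449a, at means of 58.3, 51.3, 11.1 and 3.29 CPM. The ranges of miR-34a-5p and miR-449c-5p overlapped there, and in CAG replicate 1 miR-449c-5p was above miR-34a-5p. In PGK cells the order by mean was the same, at 350.8, 28.6, 15.3 and 2.89 CPM, and no neighbours among these 4 overlapped. All other members averaged at most 2.18 CPM in both groups. Adapter ligation favours some miRNAs over others, which limits any order among different miRNAs more than a comparison of the same miRNA in different libraries.

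Summed over the 9 members, the family had 149 and 103.7 CPM in CAG replicates 1 and 2, against 402.2 and 402.4 CPM in PGK replicates 1 and 2. The makeup of these reads was far apart between the groups. MIR34A gave 43.8% (exact 95% interval 41.6 to 46.0%) and 50.9% (45.3 to 56.5%) of them in CAG replicates 1 and 2, against 88.3% (87.1 to 89.4%) and 87.1% (85.9 to 88.3%) in PGK replicates 1 and 2. The MIR449 strands gave 48.9% and 35.9% in CAG replicates 1 and 2, against 7.93% and 7.90% in PGK replicates 1 and 2. MIR34B and MIR34C gave 7.27% and 13.1% in CAG libraries, against 3.76% and 4.95% in PGK libraries. The mean share of MIR34A was 40.4 percentage points lower in CAG cells (difference −40.4; exact permutation p = 0.333, two-sided, the smallest possible here). For each of the 3 loci the shares of the groups did not overlap. The 3 shares make up the whole, so a lower share of MIR34A raises the others, and these are not separate results. MIR34B and MIR34C had a higher share in CAG libraries but a lower level. They stood at 10.9 and 13.6 CPM in CAG libraries, against 15.1 and 19.9 CPM in PGK libraries.

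**Figure D3:**
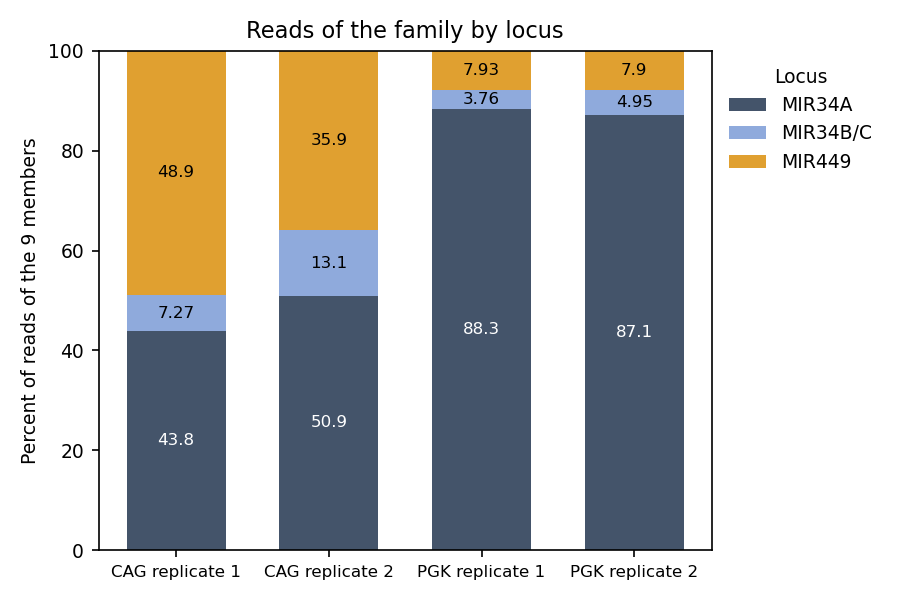
Percent of the reads of the 9 members that came from each locus, 1 bar per library. MIR34A holds 43.8 and 50.9% in the CAG libraries and 88.3 and 87.1% in the PGK libraries, and MIR449 holds most of the remainder in all 4.

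Ratios within a library do not depend on scaling between libraries. There were 0.763 and 1.03 reads of miR-34a-5p per read of the other 2 loci in CAG replicates 1 and 2, against 7.51 and 6.74 in PGK replicates 1 and 2. On the log2 scale, with 0.5 added to each count, this ratio was −0.17 ± 0.31 in CAG and 2.83 ± 0.11 in PGK cells (SD, n = 2 each), a difference of −3.00. The ratio of miR-34a-5p to the reads of MIR34B and MIR34C, the other locus known as a p53 target, differed by −2.08, with 2.56 and 1.93 in CAG libraries and 4.54 and 4.12 in PGK libraries. The ratio to the MIR449 reads differed by −3.31, with −0.19 and 0.49 in CAG libraries and 3.47 and 3.45 in PGK libraries. All 3 had an exact permutation p = 0.333, two-sided, the smallest that this design allows. In these 3, which all hold miR-34a-5p, the distance between groups was larger than the distance between replicates. The log2 ratio of the MIR449 reads to those of MIR34B and MIR34C was 2.75 and 1.44 in CAG libraries. In PGK libraries it was 1.07 and 0.67. This difference of 1.22 between group means was smaller than the distance between the CAG replicates.

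With the members' reads summed per locus in place of their own rows, a version added after seeing the data that called 14.4% of 770 features, MIR34A had a log2 fold change of −2.56 (SE 0.20; edgeR adjusted p = 6.97e-06). MIR34B and MIR34C together stood at 10.9 and 13.6 CPM in CAG replicates 1 and 2, against 15.1 and 19.9 CPM in PGK replicates 1 and 2. The groups did not overlap, and the log2 fold change of −0.57 (SE 0.28) was not called (edgeR adjusted p = 0.215). It was −0.35 both without CAG replicate 1 and without PGK replicate 2. The MIR449 reads stood at 73.1 and 37.3 CPM in CAG libraries, against 31.9 and 31.8 CPM in PGK libraries. Their log2 fold change of 0.84 (SE 0.29) was not called either (edgeR adjusted p = 0.0906), but was 1.20 without CAG replicate 2 (edgeR adjusted p = 0.000243) and 0.23 without CAG replicate 1.

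The deposited table of seed families separates the shared from the shifted seed. Of 642 families tested, 67 (10.4%) were called, 30 of them (4.67%) lower and 37 (5.76%) higher in CAG cells. The family with seed GGCAGUG, whose counts equal within 1 read the sum of 4 members (both 5p strands of miR-34a and miR-34c, plus miR-449a and miR-449b-5p), stood at 80.4 and 64.9 CPM in CAG replicates 1 and 2, against 373.7 and 374.1 CPM in PGK replicates 1 and 2. It fell by 2.35 on the log2 scale (SE 0.19; edgeR adjusted p = 0.000114). miR-34a-5p supplied 79.6% and 79.4% of its reads in CAG libraries, against 95.5% and 94.4% in PGK libraries, so the family value largely repeats that miRNA. miR-34c-5p supplied 12.2% and 18.6% in CAG libraries, against 3.25% and 5.06% in PGK libraries.

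The family with the shifted seed AGGCAGU holds miR-449c-5p, miR-34b-5p and miR-2682-5p, a miRNA from another locus. The family stood at 66.4 and 35.2 CPM in CAG replicates 1 and 2, against 28.2 and 31.1 CPM in PGK replicates 1 and 2. Its log2 fold change was 0.82 (SE 0.30; edgeR adjusted p = 0.117), which did not pass; it was 1.15 without CAG replicate 2 (edgeR adjusted p = 0.0294) and 0.24 without CAG replicate 1. miR-449c-5p gave 97.3 to 100% of its reads. miR-2682-5p had no read in either CAG library, against 4 and 6 reads in PGK replicates 1 and 2.

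The setting of the test changed little for miR-34a-5p. Over 15 alternatives its log2 fold change ran from −2.73 to −2.45, and the adjusted p never exceeded 0.0116, the value without PGK replicate 2 (edgeR). For miR-449c-5p, in contrast, the fold change moved with the CAG library left out.

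**Figure D4:**
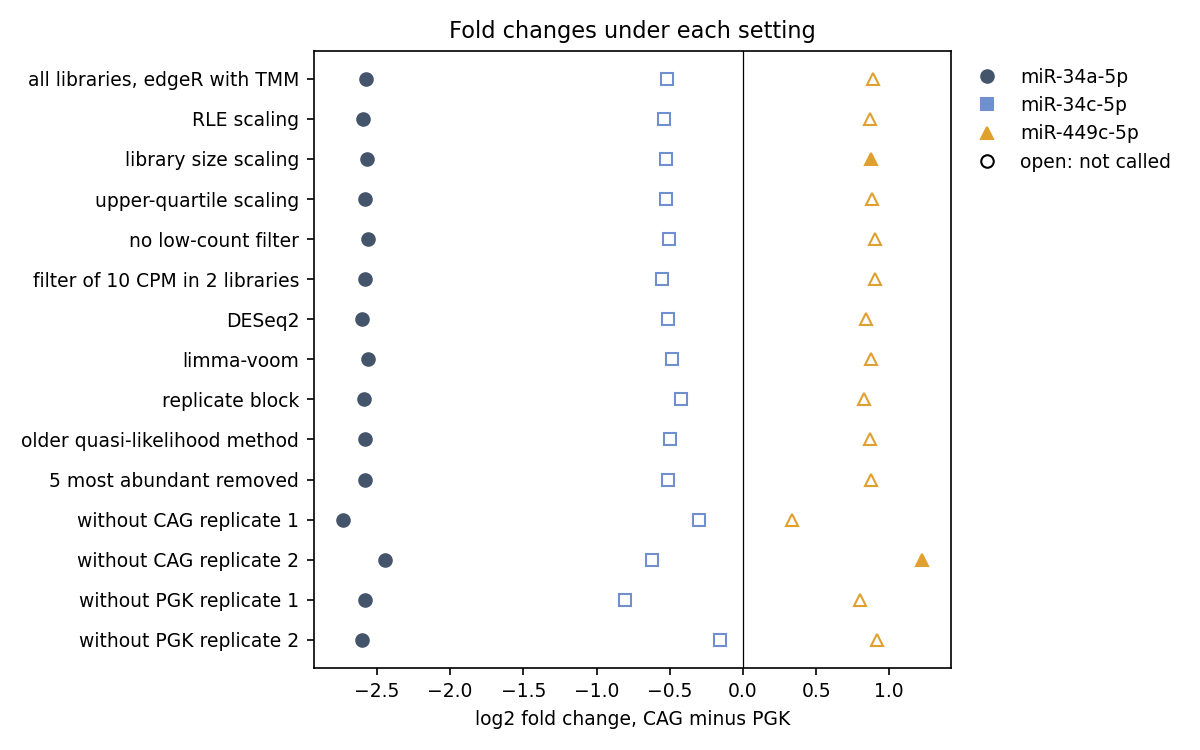
Log2 fold change of CAG minus PGK for miR-34a-5p, miR-34c-5p and miR-449c-5p under each scaling, filter, test and set of libraries, with filled symbols for an adjusted p under 0.05. miR-34a-5p stays between −2.73 and −2.45 and is filled throughout, whereas miR-449c-5p runs from 0.34 without CAG replicate 1 to 1.22 without CAG replicate 2.

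Other miRNAs that p53 is reported to activate or to help process did not share a direction. Of 19 listed, 12 were tested, with 3 higher and 3 lower in CAG cells and 6 not called, so 50% of those tested were called, against 14.2% of all tested miRNAs (8.15% higher and 6.08% lower). They had a median log2 fold change of −0.20, against −0.004 over all tested miRNAs. Strands of 1 hairpin or cluster are not independent readings, and the list was chosen with earlier results of these data known. On the lower side, miR-192-5p stood at 3217 and 2746 CPM in CAG replicates 1 and 2, against 5593 and 5971 CPM in PGK replicates 1 and 2. The log2 fold change of miR-192-5p was −0.96 (SE 0.16; edgeR adjusted p = 0.00303). Both strands of miR-194, which has a hairpin clustered with miR-192, were lower too, with log2 fold changes of −0.98 for the 5p and −0.92 for the 3p strand (edgeR adjusted p = 0.00513 and 0.0368). The miR-215-5p strand, a close relative of miR-192-5p, was at 130.1 and 127.7 CPM in CAG libraries, against 125.9 and 127.1 CPM in PGK libraries, a log2 fold change of 0.03 (SE 0.18).

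On the higher side, miR-200c-3p, an epithelial miRNA that targets ZEB1, had a log2 fold change of 1.03 (edgeR adjusted p = 0.00887) and stood at 66.1 and 54.4 CPM in CAG replicates 1 and 2, against 29.8 and 29.7 CPM in PGK replicates 1 and 2. Its family did not share this direction. miR-200b-3p and miR-200a-3p, not on the list, averaged 10.9 and 1.19 CPM over the 4 libraries. Their log2 fold changes were −1.82 and −1.74 (edgeR adjusted p = 0.00257, called, and 0.0792, not called). miR-143-3p and miR-16-1-3p, from hairpins whose processing p53 is reported to promote, had log2 fold changes of 1.32 and 0.97 (edgeR adjusted p = 0.0214 and 0.0394). They stood at 9.72 to 14.4 and 14.9 to 17.4 CPM in CAG libraries, against 4.38 to 5.85 and 7.67 to 9.13 CPM in PGK libraries. miR-16-5p, the far more abundant opposite strand and not on the list, was at 0.05 (edgeR adjusted p = 0.891). The listed miR-145-5p was too low to test, with 1 and 0 reads in CAG replicates 1 and 2, against 2 and 3 reads in PGK replicates 1 and 2. Among the most abundant of the list, miR-1246 was at −0.13 and miR-107 at −0.18, and neither was called. All 6 calls were lost without PGK replicate 1 and without PGK replicate 2, where 0 of the list was called, while the log2 fold changes of all 6 kept their direction: against the values above, miR-192-5p was at −1.02 and −0.92 in these fits, miR-194-5p at −1.10 and −0.88, and miR-200c-3p at 1.01 in both. The spread in these fits comes from the 2 CAG libraries, and over all miRNAs 19 and 16 were called. miR-34a-5p was among the called miRNAs in both.

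The miRNAs whose profile over the 4 libraries was most like that of miR-34a-5p were found among 361 others averaging 20 CPM or more, by the root-mean-square distance of log2 CPM centred on each miRNA's mean. The nearest was miR-1-3p, a muscle miRNA, at a distance of 0.086, followed by miR-452-5p at 0.143 and miR-224-5p at 0.352, neighbours on the X chromosome, miR-1287-5p at 0.618 and miR-9-3p at 0.638. The median distance was 1.31. miR-1-3p stood at 16.5 and 15.6 CPM in CAG replicates 1 and 2, against 103.7 and 94.0 CPM in PGK replicates 1 and 2. miR-133a-3p, a muscle miRNA processed from the same transcripts as miR-1-3p, had 4 and 0 reads in CAG replicates 1 and 2, against 20 and 14 reads in PGK replicates 1 and 2. With 4 libraries such likeness says little more than that all 5 were lower in both CAG libraries. No member of the family was among the 5, since members were left out of the search.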

How the data were processed

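Per the labels' protocols, RNA was isolated with Trizol and the NEBNext Small RNA Library Prep Kit was used for sequencing libraries. The authors deposited whole-number counts for 2656 mature miRNAs and for 2094 seed families, 1 column per library. Not given in the sources used here: the aligner, the annotation and how reads matching more than 1 miRNA were counted. Groups and replicate numbers came from sample titles. Replicates differed far beyond counting noise (chi-square per degree of freedom 125 for CAG and 66.1 for PGK), so each library counted as 1 replicate.

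Counts were tested with edgeR 4.0.16 (quasi-likelihood, newer method, robust; TMM; filter by group with minimum count 10 and minimum total 15) in R 4.3.3, group alone as the model, two-sided, Benjamini-Hochberg over all features, threshold 0.05. The filter kept 773 miRNAs with at least 99.97% of reads. The standard error is the fold change over the root of F. The code was tested on simulated data. Exact permutation tests and binomial intervals (95%, Clopper-Pearson) used scipy 1.17.1. Alternatives were other scalings, filters, DESeq2 1.42.0, limma-voom (limma 3.58.1), the replicate block, each library left out and a threshold of 0.01; the older quasi-likelihood method, removal of the 5 most abundant miRNAs and sums per locus were chosen after seeing the data. The members, lists and tests were chosen with earlier results of these data known. By the naming rule the text names all 9 members, every called and the 3 most abundant tested p53-linked miRNAs, and the 5 miRNAs closest in profile. Added with their values known were miR-215-5p, miR-2682-5p, miR-133a-3p, miR-200a-3p, miR-200b-3p, miR-16-5p, miR-145-5p and miR-499a-5p.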

Additional observations from a re-analysis of the deposited data

How the results depend on the processing

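miR-34a-5p, its seed family and the read sum of MIR34A kept their direction and call under all 15 alternatives. The count of all called miRNAs was 63 with the replicate block, 49 at a threshold of 0.01 and 16 to 162 with 1 library left out; it was 19 without PGK replicate 1 and 16 without PGK replicate 2, where the spread of the lone PGK library is taken from the 2 CAG libraries, as that of a lone CAG library is taken from the 2 PGK libraries. Among the other tested members 1 (miR-449c-5p) was called with library size scaling and 0 to 1 with a library left out. The log2 fold change of the shifted-seed family was 0.84 and called with library size scaling, and 0.24 to 1.15 with a library left out. That of miR-449a was −1.17 to 1.39 with a library left out, and was −0.11 without PGK replicate 2. The p53-linked calls numbered 3 with the replicate block, 3 at a threshold of 0.01 and 0 to 7 with a library left out. The cause of these changes was not tested. The labels do not state that a replicate number marks a shared batch. The deviations of same-numbered libraries had a correlation of −0.015 across miRNAs, and the block ended no call of a family member. Whether some miRNAs shared a batch effect was not tested. The filter of 10 CPM left no value for miR-34a-3p, miR-34b-3p and miR-449a. Depth limits most the members averaging at most 2.18 CPM, which rest on at most 17 reads per library, and 3 of them were too low to test.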
